A study of Rattus norvegicus with 6 samples.

Results

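The oocyte genes described here are 10 genes that mark the female germ cell: the zona pellucida genes Zp1, Zp2 and Zp3, the growth factor genes Gdf9 and Bmp15, the germ cell RNA regulators Ddx4 and Dazl, the transcription factor genes Figla and Nobox, and the maternal factor gene Nlrp5. Every probe set that the array's annotation maps to 1 of these genes and to no other gene was taken. Of the 10 genes, 5 had such a probe set, with 1 each: Zp1 (1369464_at), Zp2 (1387293_at), Zp3 (1368757_at), Gdf9 (1369121_at) and Bmp15 (1387734_at). They are 5 of 14217 genes and 5 of 31042 probe sets tested. For Ddx4, Dazl, Figla, Nobox and Nlrp5 the annotation used here names no probe set, and 0 probe sets were mapped to a member together with another gene, so nothing is said of these 5 genes' expression.

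The samples were 6 RNA pools of whole rat ovary, each on 1 Affymetrix array, 3 from lean and 3 from overfed females. Females were fed liquid diets by total enteral nutrition, that is, through a feeding tube, for 28 days. The lean diet gave 155 kcal per kg of metabolic body weight and the overfed diet 220 kcal. Both groups were then mated with lean males, and ovaries were frozen at 4.5 days post coitum, so that every pool comes from early pregnancy. The number of animals in a pool, their strain and their age were not given in the sources used here, and the p-values therefore measure the spread between pools only. Values are on a log scale read as log2, and each is relative to the median of that probe set over the 6 pools. A value of 0 is thus the middle of the 6 pools, levels are unknown, and it could not be checked how far each oocyte probe set lay above background. The base of the logarithm is not stated; if it is not 2, the folds change but the p-values do not.

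The zona pellucida is the glycoprotein coat that the oocyte secretes around itself as the follicle starts to grow. ZP1, ZP2 and ZP3 are among its filament proteins, and sperm bind to it before fertilization. GDF9 and BMP15 are ligands of the TGF-beta family that the oocyte releases onto the surrounding granulosa cells, where they act through the receptor BMPR2, type 1 receptors and SMAD proteins. FIGLA, a basic helix-loop-helix factor that binds E-box sequences, activates the zona genes, and the homeobox factor NOBOX acts on oocyte genes including Gdf9. In an ovary of early pregnancy, oocytes are few cells among luteal, stromal, granulosa and vascular cells. In RNA from whole ovary, fewer oocytes and less RNA per oocyte cannot be told apart.

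FIGLA and NOBOX act on the oocyte genes at their promoters, and their own genes have no probe set here. The promoters of the measured members are therefore shown, as RefSeq gives them in the rat build GRCr8. The RefSeq promoter table used here matched 4 of the 5 measured members, without Zp2. Each run is the 250 bases before the transcription start that this table lists, 5′ to 3′ on the gene's strand. For Zp1 and Gdf9 that listed start lies inside the full RefSeq span of the gene, which begins further upstream. Capitals mark every E-box (CANNTG, which reads as an E-box on both strands) and every TATA box (TATAAA, searched on both strands).
Zp1 (chr1:216992149-216992398, minus strand): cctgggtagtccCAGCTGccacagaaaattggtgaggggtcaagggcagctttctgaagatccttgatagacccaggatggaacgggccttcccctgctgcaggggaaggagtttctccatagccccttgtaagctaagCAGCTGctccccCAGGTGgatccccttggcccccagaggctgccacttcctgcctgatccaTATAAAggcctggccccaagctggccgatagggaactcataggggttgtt
Zp3 (chr12:26334127-26334376, minus strand): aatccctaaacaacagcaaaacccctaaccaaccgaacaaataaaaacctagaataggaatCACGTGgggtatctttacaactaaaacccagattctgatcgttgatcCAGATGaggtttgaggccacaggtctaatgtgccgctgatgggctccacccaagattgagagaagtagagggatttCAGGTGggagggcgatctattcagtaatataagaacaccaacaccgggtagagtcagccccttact
Gdf9 (chr10:38096301-38096550, plus strand): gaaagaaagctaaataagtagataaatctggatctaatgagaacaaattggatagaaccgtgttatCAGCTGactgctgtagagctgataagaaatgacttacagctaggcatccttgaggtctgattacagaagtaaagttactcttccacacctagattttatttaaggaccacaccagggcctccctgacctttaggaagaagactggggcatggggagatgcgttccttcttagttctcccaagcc
Bmp15 (chrX:18840693-18840942, plus strand): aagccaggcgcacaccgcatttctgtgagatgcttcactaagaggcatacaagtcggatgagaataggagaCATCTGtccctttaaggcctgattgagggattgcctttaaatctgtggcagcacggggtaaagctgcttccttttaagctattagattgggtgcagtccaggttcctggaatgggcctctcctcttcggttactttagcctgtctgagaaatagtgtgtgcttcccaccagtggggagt

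Both zona promoters held 3 E-boxes, and both growth factor promoters held 1. The form CACCTG, which is a subset of CANNTG and was searched on both strands, occurred once in Zp1, with its first letter 99 bases before the listed start, and once in Zp3, 66 bases before it, each time as CAGGTG. It did not occur in the Gdf9 and Bmp15 windows, whose E-boxes read CAGCTG in Gdf9 and, in Bmp15, CATCTG. Of 33469 rat promoters of the same length, 65.5% held any E-box and 15.9% held CACCTG. Among the 4, Zp1 alone had a TATA box, 50 bases before its listed start, which 12.9% of all promoters also had. The form TAATTG of the NOBOX core, searched on both strands, was in none of the 4 windows and in 7.31% of all promoters. Other forms of the core were not searched, so their absence from the windows is not shown. These matches describe letters in a window and are not measurements of binding.

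Setting overfed against lean ovaries asks whether oocyte transcripts differ with maternal overfeeding. No oocyte gene passed the test, and in each of the 5 the lean and overfed pools overlapped. Zp3 and Gdf9 had means above those of the lean pools, by 0.31 and 0.13 on the log2 scale. Zp1, Zp2 and Bmp15 had means below them, with differences of -0.09, -0.10 and -0.08. All 5 intervals included 0. The median difference over the 5 genes was -0.08, against 0.015 over all probe sets tested.

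The test was limma's, fitted across all 31042 probe sets, with Benjamini-Hochberg adjustment. At an adjusted p under 0.05 it called 0 probe sets (0.0%), oocyte genes included, with 0.623 as the smallest adjusted p. At an unadjusted p under 0.05 it called 0 of the 5 oocyte genes, against 2070 probe sets or 6.67% of all. The groups did not overlap in 0 of the 5, against 12.7% of all probe sets.

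**Figure D1:**
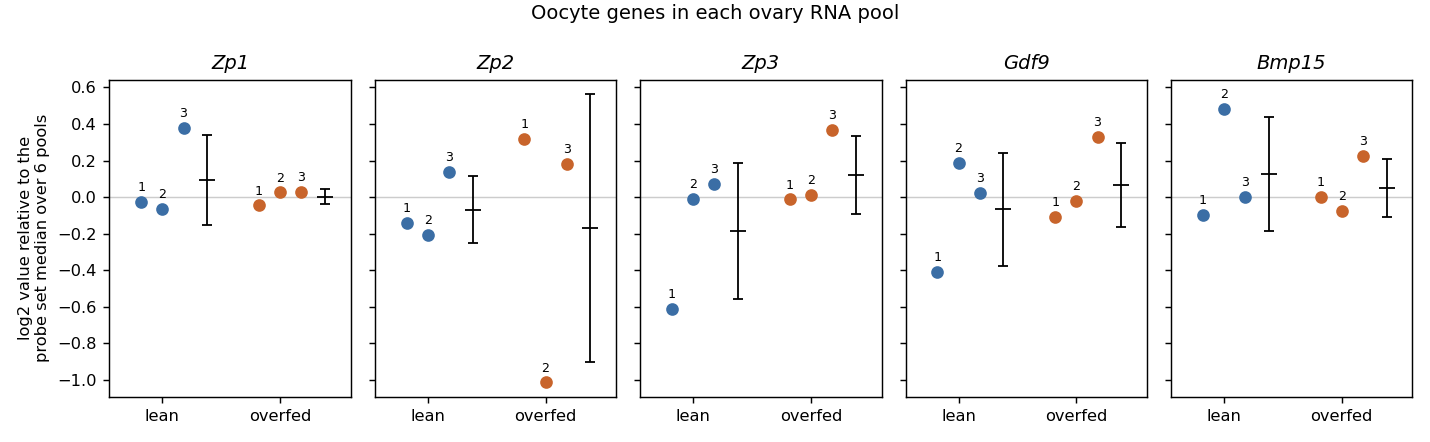
Values of the 5 measured oocyte genes in each ovary RNA pool, as log2 relative to the probe set's median over the 6 pools (y axis), for lean (blue) and overfed (orange) pools, which are numbered; black bars are the group mean with its SD (n = 3). Lean pool 1 is lowest in Zp3, Gdf9 and Bmp15, and overfed pool 2 lies at -1.01 in Zp2 alone.

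Zp3 encodes the zona protein long studied as a sperm receptor, and its transcript is a standard marker of growing oocytes. Its values were -0.61, -0.01 and 0.07 in lean pools 1, 2 and 3 and -0.01, 0.01 and 0.37 in overfed pools 1, 2 and 3. Lean pool 1 was the low pool and overfed pool 3 the high one, while the other 4 pools lay within 0.1 of 0. Zp3 had the largest difference of the 5 genes, 0.31 (SE 0.20, 95% interval -0.17 to 0.78), or 1.24-fold, with a limma adjusted p of 0.842. Without lean pool 1 it was 0.09.

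Zp2 encodes the zona protein that binds sperm and is cleaved after fertilization. It had values of -0.14, -0.21 and 0.14 over lean pools 1 to 3 and 0.32, -1.01 and 0.18 over overfed pools 1 to 3. Overfed pool 2 stood apart below the others, 1.75-fold under the next lowest pool, whereas overfed pools 1 and 3 were the highest of the 6. Its range of 1.33 over the pools was the widest of the 5 genes, and 3.02% of all probe sets had a wider one. The group means were -0.07 ± 0.18 (SD, n = 3) for lean and -0.17 ± 0.73 (SD, n = 3) for overfed pools. The difference of -0.10 (SE 0.34, limma adjusted p = 0.975) had an interval from -0.90 to 0.69, the widest among the 5. Without overfed pool 2 it was 0.32 (unadjusted p = 0.057, limma adjusted p = 0.859, the lowest over its alternatives), and without lean pool 3 it was 0.0012.

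The other zona genes did not share that low value. In overfed pool 2, Zp1 and Zp3 lay at 0.03 and 0.01. Zp2 was thus 1.04 below Zp1 and 1.03 below Zp3 in that pool relative to each gene's own median, as the differences of -1.04 and -1.03 show. In the other 5 pools, Zp2 minus Zp3 ran from -0.19 to 0.47. Zp2 had a single probe set, so no second probe set could be set beside it.

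Zp1 encodes the zona protein that cross-links the filaments of the coat. It varied least of the 5, with -0.03, -0.07 and 0.38 over lean pools 1 to 3 and -0.05, 0.03 and 0.03 over overfed pools 1 to 3. Lean pool 3 alone was high, and the overfed pools lay close together, with an SD of 0.04 against 0.25 in the lean pools. The difference was -0.09 (SE 0.13, 95% interval -0.40 to 0.21, limma adjusted p = 0.931), and without lean pool 3 it was 0.05. Lean pool 3 was also the pool with the highest array controls, described below.

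Gdf9 encodes the oocyte ligand needed for follicles to grow past the primary stage. Its values were -0.41, 0.19 and 0.02 over lean pools 1 to 3 and -0.11, -0.02 and 0.33 over overfed pools 1 to 3. As in Zp3, lean pool 1 was lowest and overfed pool 3 highest. The difference was 0.13 (SE 0.18, 95% interval -0.30 to 0.56, limma adjusted p = 0.930), and without lean pool 1 it was -0.04.

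Bmp15, the X-linked partner of Gdf9, had values of -0.10, 0.48 and -0.00084 over lean pools 1 to 3 and 0.00084, -0.08 and 0.23 over overfed pools 1 to 3. Lean pool 2 was the high pool, and both groups spread around 0. The difference was -0.08 (SE 0.17, 95% interval -0.47 to 0.32, limma adjusted p = 0.960), and without lean pool 2 it was 0.10. Bmp15 minus Gdf9 was 0.31 and 0.29 in lean pools 1 and 2 and between -0.10 and 0.11 in the other 4 pools.

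The intervals bound what these 6 arrays could show. They reach up to 1.71-fold higher for Zp3 and 1.48-fold higher for Gdf9. On the lower side they reach 1.32-fold for Zp1 and 1.39-fold for Bmp15. For Zp2 they allow 1.86-fold lower and 1.61-fold higher. A difference within those bounds is compatible with these values, and the absence of a call does not show that the groups are alike.

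Across pools, Zp2 was least like the other members. Likeness was measured as the root mean square difference of the log2 values over the 6 pools, each gene first set to a mean of 0. Of the 10 pairs, Zp3 and Gdf9 were the most alike, at 0.12, followed by Gdf9 and Bmp15 at 0.16. The 4 pairs that held Zp2 were the least alike, between 0.44 and 0.49. This measure is not scaled to a gene's range, and that of Zp2 was the widest, at 1.33. Its low value of -1.01 was in 1 pool, overfed pool 2, and on 1 probe set. All pairs share the same 6 pools.

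Lean pool 1 was the lowest of the 6 pools in 3 of the 5 genes (Zp3, Gdf9 and Bmp15) and below the middle of the pools in all 5. Over all probe sets, 17.1% had their lowest value in that pool, and 16993 of 31042 lay below the middle there. In lean pool 1, 0.29% of all probe sets had a lower value than Zp3 and 1.01% a lower value than Gdf9, while the shares were 13.9% for Zp2, 20.6% for Bmp15 and 41.9% for Zp1. Overfed pool 3 was above the middle in all 5 genes and the highest pool in 2 of them, Zp3 and Gdf9. Of all 31042 probe sets, 16964 lay above the middle in that pool and 6384 were highest there. The mean over the 5 genes was -0.26, 0.08 and 0.12 over lean pools 1 to 3 and 0.03, -0.21 and 0.23 over overfed pools 1 to 3. Without Zp2, the mean in overfed pool 2 was -0.01. The low pools of the mean over the 5 genes lay in both diet groups, but the low value of overfed pool 2 rests on Zp2. Without Zp2, the mean was lowest in lean pool 1, at -0.29, and highest in overfed pool 3, at 0.24.

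Other genes of the oocyte were looked up from a list of 40, of which 16 had a probe set. The list also holds genes of meiosis and Kit, and how far each gene reports the oocytes of these ovaries was not tested. Sycp3 had a value of exactly 0 in lean pool 1 and in overfed pools 2 and 3. None passed the adjusted threshold or an unadjusted p under 0.05. Their limma differences were above 0 in 9 and below 0 in 7, with a median of 0.03. The groups did not overlap in 4 of the 16, with 3 above and 1 below, against 7.35% above and 5.33% below among all probe sets. Those above were Ooep, Sycp1, which encodes a protein of the synaptonemal complex, and Izumo1r, the egg's receptor for the sperm protein IZUMO1, at differences of 0.33, 0.10 and 0.08. Their groups were barely apart. In Izumo1r, lean pool 2 lay at -0.00072 and overfed pool 1 at 0.00072, and in Sycp1, lean pool 1 lay at -0.00695 and overfed pool 2 at 0.00695. The lowest p-values belonged to Stag3, a cohesin subunit of meiosis, and Taf4b, a gonadal subunit of the TFIID complex. Stag3 had values of 0.02, 0.11 and 0.50 over lean pools 1 to 3 and -0.07, -0.07 and -0.02 over overfed pools 1 to 3. Its pools did not overlap, at a difference of -0.26 (SE 0.13, limma adjusted p = 0.808). Taf4b, at -0.25 (SE 0.13, limma adjusted p = 0.811), overlapped and was lowest in overfed pool 1, at -0.46.

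Ooep, a component of the subcortical maternal complex to which NLRP5 also belongs, was chosen for description after its values were seen. It had -0.62, -0.00026 and -0.04 over lean pools 1 to 3 and 0.00026, 0.17 and 0.15 over overfed pools 1 to 3. The groups were separated by a gap of under 0.001 between lean pool 2 and overfed pool 1. The difference of 0.33 (SE 0.17, limma adjusted p = 0.819) had an interval from -0.08 to 0.74. Ooep was lowest in lean pool 1, as were Lin28a (-0.30), Bcl2l10 (-0.30) and Cpeb1 (-0.27), the last of which encodes a regulator of stored oocyte mRNA. In lean pool 1, 13 of the 16 genes lay below the middle of the pools and 2 above it, and 4 of the 16 were lowest there. Of all 31042 probe sets, 16993 lay below the middle in that pool and 17.1% were lowest there. Overfed pool 1 was also the lowest pool in 4 of the 16. In overfed pool 2, where Zp2 was low, 12 of the 16 lay above the middle and 0 were lowest. Of all 31042 probe sets, 16256 lay above the middle there and 11.3% were lowest.

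**Figure D2:**
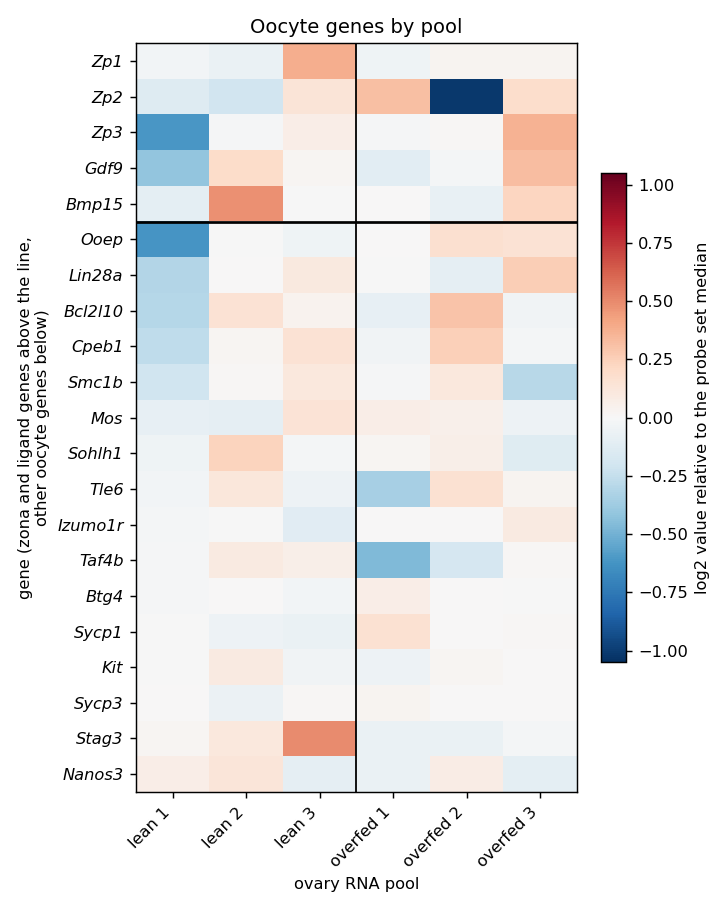
Log2 values relative to the probe set's median (color, blue below and red above) for the 5 measured zona and ligand genes, above the horizontal line, and 16 other oocyte genes, below it and sorted by their value in lean pool 1, in 6 ovary RNA pools (columns, lean left and overfed right of the vertical line). The lowest cell is Zp2 in overfed pool 2 at -1.01, and Ooep and Zp3 are at -0.62 and -0.61 in lean pool 1.

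Markers of granulosa cells, the neighbours to which the oocyte sends GDF9 and BMP15, were also low in lean pool 1 and high in overfed pool 3. Their mean was low in overfed pool 1 as well, where Zp3 was at -0.01 and Gdf9 at -0.11. Over 11 of 12 listed granulosa markers, the mean was -0.21, 0.04 and -0.09 over lean pools 1 to 3 and -0.21, 0.10 and 0.27 over overfed pools 1 to 3. In lean pool 1, 9 of the 11 lay below the middle of the pools, against 16993 of all 31042 probe sets. In overfed pool 3, 10 of the 11 lay above it, against 16964 of all. The other overfed pools differed: 10 of the 11 lay below the middle in pool 1, against 15987 of all. In pool 2, 9 of the 11 lay above it, against 16256 of all. The median difference was 0.12, with 9 above 0, 2 below, and 0 past an unadjusted p under 0.05. Inha, the inhibin alpha subunit of growing follicles, had -0.49 in lean pool 1 and 0.26 in overfed pool 3. A low mean in lean pool 1 was not particular to granulosa markers. Corpus luteum markers had a mean of -0.24 there, theca markers -0.16 and macrophage markers -0.11. Oviduct and ciliated cell, smooth muscle and adipocyte markers had means of 0.46, 0.36 and 0.17 in that pool. In overfed pool 3, macrophage markers also had a high mean, at 0.21, and theca markers were at 0.09. Means of corpus luteum, adipocyte, smooth muscle, and oviduct and ciliated cell markers were below 0 there. The part of follicle content in the values of Zp3 and Gdf9 was not tested.

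The receptors and SMAD proteins that carry the GDF9 and BMP15 signal were measured in 10 of 11 listed genes. None passed the adjusted threshold. Differences were above 0 in 5 and below 0 in 5, with a median of 0.04. An unadjusted p under 0.05 was found in 1 of the 10, against 6.67% of all probe sets, a share that 1 of 10 does not set apart. That gene was Bmpr2, the type 2 receptor of both ligands, with -0.19, -0.01 and -0.60 over lean pools 1 to 3 and 0.01, 0.11 and 0.21 over overfed pools 1 to 3. The groups did not overlap, and the difference was 0.38 (SE 0.16, 1.30-fold, unadjusted p = 0.0447, limma adjusted p = 0.740). Without lean pool 3 it was 0.21 (unadjusted p = 0.0933, from limma), and its second probe set was at 0.10 (unadjusted p = 0.403). Smad3, which relays the GDF9 signal, also had groups apart, at -0.23 (limma adjusted p = 0.761), but its second probe set was at 0.13.

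Granulosa genes known to respond to GDF9 or BMP15 were measured in 14 of 15 listed genes. Differences were above 0 in 11 and below 0 in 3, with a median of 0.08. Over all probe sets, 16938 of 31042 had differences above 0. The list gives no direction of response, so its counts do not measure the signal. Inha, Inhbb and Fst are also on the list of granulosa markers. None of the 14 passed the adjusted threshold, and 1 of the 14 had an unadjusted p under 0.05, near the 6.67% of all probe sets. That gene, Inhba, encodes the activin beta A subunit and had -0.60, 0.01 and -0.70 over lean pools 1 to 3 and -0.01, 0.22 and 0.41 over overfed pools 1 to 3. Lean pool 2 lay inside the overfed range. The difference of 0.64 (SE 0.20, limma adjusted p = 0.676) was 1.56-fold, and the second probe set was at 0.56 (unadjusted p = 0.0279). Without lean pool 1, lean pool 3 or overfed pool 3, the unadjusted p of the first was 0.0575, 0.0563 or 0.0583 in limma. The largest difference of the list was that of Grem1, a BMP antagonist, at 0.89 (SE 0.76), which rests on overfed pool 1 at 2.35.

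**Figure D3:**
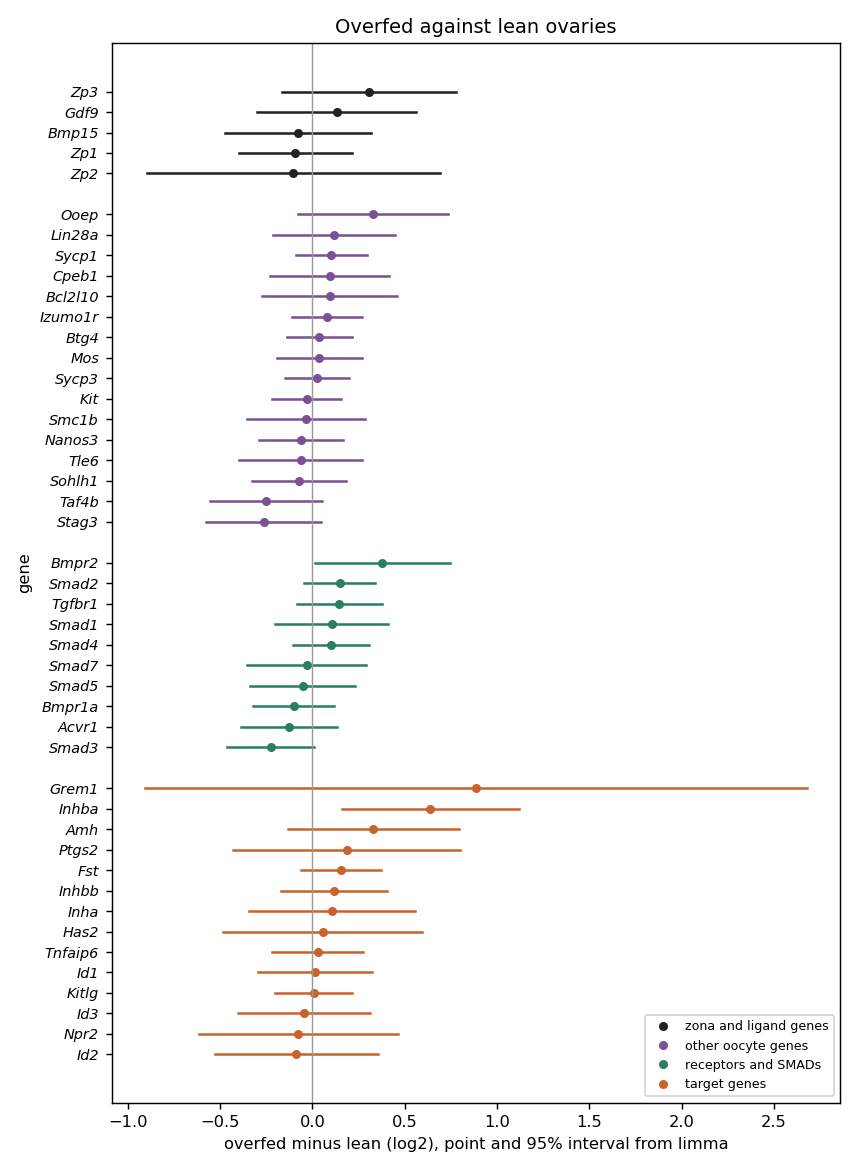
Difference of overfed minus lean pools in log2 (x axis; point, with its 95% interval from limma as a line) for the oocyte genes, the other oocyte genes, the GDF9 and BMP15 receptors and SMADs, and their target genes (y axis, 1 gene a row). All 5 oocyte genes' intervals include 0, while those of Bmpr2 (0.01 to 0.75) and Inhba (0.16 to 1.12) do not; neither passed after adjustment.

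RNA of markers of other cell types and array controls also varied between pools. Oviduct and ciliated cell markers lay lower in the overfed pools in 9 of 9 measured genes of 13 listed, against 14104 of all 31042 probe sets. None passed the adjusted threshold, with 0.623 as the smallest limma adjusted p. Their median difference was -0.77, with pool means of -0.01 to 0.69 in lean and -0.74 to -0.17 in overfed pools. Among the overfed pools, that mean was highest in pool 2, at -0.17. Median differences were 0.23 for macrophage (8 of 8 measured), 0.15 for theca (5 of 6), -0.06 for corpus luteum (10 of 10), -0.26 for adipocyte (7 of 8) and -0.04 for smooth muscle markers (8 of 8). The mean of 9 hybridization controls was 0.50 in lean pool 3, 0.04 and 0.06 in the other lean pools and -0.25 to -0.04 in the overfed pools. Beta-actin's 3' probe set minus its 5' one was 0.36 in lean pool 3 and -0.06 to 0.06 in the others. Their part in the values of the oocyte genes was not tested. When lean pool 3 and overfed pool 1 were both left out, the difference of Zp1 and the median difference of the 5 genes were both 0.07.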

How the data were processed

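Ovary RNA was isolated with TRI reagent and RNeasy columns and labelled with biotin by the manufacturer's kit, per the labels' protocols. The submitters' processing notes name GCOS, with no version. For the probe set summary, the normalization and the log base, nothing is given in the sources used here. Deposited values are taken as log2, and in 31099 of 31099 probe sets the authors' 6 values have a median of 0 within 1e-06, so no filter on dim probe sets or variance trend was possible. The table held 0 columns of other series. Leaving out 57 controls left 31042 probe sets for the test; 20826 had 1 gene name, 436 several and 9780 none. Symbols were updated through Entrez identifiers (20758 matched RefSeq).

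Overfed and lean pools were compared with limma 3.58.1 (R 4.3.3; lmFit, eBayes, 2 groups, two-sided, Benjamini-Hochberg over all probe sets, threshold 0.05). A gene with several probe sets was represented by one with a RefSeq mRNA accession, then by type, then by lowest identifier. Named were every member, genes with an unadjusted p under 0.05, or otherwise the 2 with the lowest p, in the lists of other oocyte genes, of receptors and SMADs and of targets, and the 5 genes nearest to the members' mean. Ooep, Inha, Grem1, Smad3, Lin28a, Bcl2l10, Cpeb1, Sycp1, Izumo1r and the probe sets under -1 were named after their values were seen. Members and lists were chosen with earlier results of these data known. Simulated data for this comparison, with 31042 probe sets, held 50 probe sets changed at each of 1.5-, 2-, 4- and 8-fold. Calls were made for 15, 36, 46 and 49 of the 50, and 5 other calls were false. The larger changes in the same run make the adjusted threshold easier to reach for the smaller ones, whereas the real arrays gave 0 calls. The simulated noise was independent between probe sets, without shifts shared across a pool. These shares therefore need not hold for the real arrays. Figures used matplotlib 3.10.9. Alternatives were quantile normalization, median centring, the pool number as a block, named probe sets only, array weights, pools left out and a robust prior.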

Additional observations from a re-analysis of the deposited data

How the results depend on the processing

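With any setting tried, 0 probe sets passed limma's adjusted threshold, and 0 of the 5 oocyte genes had an unadjusted p under 0.05. Over all settings the adjusted p ran from 0.751 to 0.946 for Zp3 and from 0.829 to 0.999 for Gdf9. The 2070 probe sets at an unadjusted p under 0.05 numbered 1513 to 2267 with 1 pool left out and 1365 among probe sets with 1 gene name, of which fewer were tested. Quantile normalization, median centring, the robust prior, array weights and the block turned no oocyte gene's sign. Leaving out pools did: Zp1 became 0.049 without lean pool 3 and 0.073 when overfed pool 1 was left out as well, Zp2 became 0.0012 without lean pool 3 and 0.32 without overfed pool 2, Gdf9 became -0.039 without lean pool 1, and Bmp15 became 0.10 without lean pool 2. With 1 pool left out, differences ran from -0.17 to 0.049 for Zp1, -0.35 to 0.32 for Zp2, 0.092 to 0.43 for Zp3, -0.039 to 0.26 for Gdf9 and -0.19 to 0.10 for Bmp15. The 5 genes' median difference ran from -0.14 to 0.18, and was 0.073 with both lean pool 3 and overfed pool 1 left out. The median ran from -0.031 to 0.038 for other oocyte genes, -0.030 to 0.11 for receptors and SMADs and 0.059 to 0.17 for targets. The mean over all probe sets of a gene gave the same member values, since each had 1. Equal pool numbers did not mark pools that deviated together (correlations of 0.097, 0.17 and -0.28 for pools 1, 2 and 3). With the pool number as a replicate block the unadjusted count was 1757, the adjusted count 0, and Bmpr2 no longer had an unadjusted p under 0.05 (0.0671). Bmpr2 also missed it without lean pool 1 (0.0653), lean pool 3 (0.0933) or overfed pool 1 (0.0509), 2 (0.0903) or 3 (0.124), and without lean pool 3 and overfed pool 1 (0.0627).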

Other observations

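Values under -1 were rare in overfed pool 2: Zp2 was 1 of 8 of the 31042 probe sets (0.0258%) with such a value there, against 13 to 151 in each of the other 5 pools. The 8 were looked at after the value of Zp2 was seen. The other named ones were Exph5 (-1.28), Pxmp4 (-1.15) and the MHC class II gene RT1-Bb (-1.06), and 4 were unnamed. Exph5 was also low in overfed pool 3, at -0.84, and RT1-Bb in lean pool 2, at -0.99, while Zp2 was below -0.3 in overfed pool 2 alone.

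Among 14117 genes outside the lists, the 5 whose values lay nearest to the mean of the 5 oocyte genes over the 6 pools were Fxr2, Ncoa5, Irx1, Cd53 and Krt14, with root mean square differences of 0.042, 0.049, 0.051, 0.060 and 0.065 on the log2 scale. The mean itself had a root mean square of 0.18 about 0, and 113 genes lay within 0.1 of it. It was -0.21 in overfed pool 2, and without Zp2 it was -0.01 there. The 5 nearest genes lay between -0.33 and -0.18 in that pool, whereas Zp1, Zp3, Gdf9 and Bmp15 lay between -0.08 and 0.03. Nearness to the mean is thus not nearness to each oocyte gene. Fxr2 had -0.31, 0.04 and 0.06 over lean pools 1 to 3 and -0.04, -0.19 and 0.11 over overfed pools 1 to 3.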
